A study of Mus musculus with 8 samples.

Results

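The miRNAs described here are 7 that are known from microglia and blood leukocytes, namely miR-142, miR-223, miR-150, miR-155, miR-146a, miR-146b and miR-342. They were followed in the mouse amygdala, the brain region needed for learned fear, after auditory fear conditioning. The members were chosen by name as every probe with a mouse name of these 7 stems, whichever arm of the precursor it detects, so the stems in full were mmu-miR-142, mmu-miR-223, mmu-miR-150, mmu-miR-155, mmu-miR-146a, mmu-miR-146b and mmu-miR-342, with mmu for the mouse. This gave 14 probes of 1034 mouse miRNA probes on the array, 1 for each arm of each precursor.

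The fear conditioned group held 4 adult male C57/Bl6J mice that received 5 pairings of a 6 kHz tone with a 0.6 mA shock and were killed 30 min later. The home cage group held 4 adult male mice of the same strain that stayed in their cage and received neither tone nor shock, so that learning cannot be told apart from exposure to either. RNA came from bilateral punches of 1 mm, and each mouse was measured on its own array. Such a punch is a mixture of neurons, glia, vessel wall and whatever blood it holds. In tissue of this kind, fewer cells of a type and less RNA per cell cannot be told apart.

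Microglia are the resident macrophages of the brain, and leukocytes reach a punch mainly in the blood of its vessels. miR-142 is made in cells of blood lineage, microglia included, and both arms of its precursor are used. miR-223 belongs to neutrophils, monocytes and platelets, and miR-150 to mature B, T and natural killer cells, where it represses the transcription factor Myb. miR-155 and the miR-146 pair are induced by inflammatory signals in macrophages. miR-155 sustains the response, whereas miR-146a represses the adaptors Traf6 and Irak1 and so restrains it. miR-342 lies within the gene Evl and is known from both leukocytes and microglia. Which cells of a punch gave the signal of any member was not tested, and other brain cells are among them.

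The mature sequences are shown because the array tells these miRNAs apart by sequence alone, and because a shared seed, bases 2 to 8 from the 5′ end and here in capitals, is what makes 2 miRNAs bind the same targets. RefSeq (GRCm38.p6) gave a mature sequence for 13 of the 14 probes, all but miR-150, whose seed was therefore not compared. Of the 13, 7 are printed 5′ to 3′.
miR-142-5p: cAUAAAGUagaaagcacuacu
miR-142-3p: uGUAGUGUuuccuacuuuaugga
miR-223: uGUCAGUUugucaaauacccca
miR-155: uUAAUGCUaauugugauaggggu
miR-146a: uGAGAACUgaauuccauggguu
miR-146b: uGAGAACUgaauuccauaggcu
miR-342-3p: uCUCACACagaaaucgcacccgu
miR-146a and miR-146b shared a seed with each other and with no other mature miRNA of the table, and none of the other 11 sequences shared its seed with any. The miR-146 pair was identical over the first 17 bases and differed at 2 of 22, G18A and U21C, counted from the 5′ end with miR-146a's base first. Cross-hybridisation between these 2 probes was not tested.

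The precursors lie on 6 chromosomes of GRCm38.p6. Mir142 (chr11:87756864-87756927) overlaps the miRNA gene Mir142b, Mir223 (chrX:96242817-96242926) the non-coding gene F630028O10Rik, and Mir155 (chr16:84714140-84714204) the non-coding gene Mir155hg. Mir146b (chr19:46342762-46342870) overlaps the non-coding gene Gm36493 and Mir342 (chr12:108658620-108658718) the protein-coding gene Evl. No other gene of the table overlaps Mir146, which encodes miR-146a (chr11:43374397-43374461), or Mir150 (chr7:45121757-45121821).

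2 kinds of value are given for each probe. The first is the normalised signal of the sample's dye Hy3 on the log2 scale, computed here from the scanner intensities. The second is the log ratio of sample to a pool of all animals that the authors deposited, taken as log2. Differences are fear conditioned minus home cage with their standard error (SE), from limma fitted over all mouse probes, and adjusted p is Benjamini-Hochberg over all of them. A probe counted as measured on an array where it exceeded the 95th percentile of that array's negative control spots, which lay between 6.42 and 6.48. Between 567 and 659 mouse probes did so per array. The conditioned arrays were brighter before normalisation, with a 95th percentile of the capture spot signal between 600 and 901 against 498 to 589 on home cage arrays. The scanner software marked 508 spots with the code 4 on home cage array 1, against 0 to 10 on any other array. The neuronal miR-124 stood at 14.26 ± 0.16 in fear conditioned mice and 14.46 ± 0.059 in home cage mice (SD, n = 4 each). This places the neuronal miRNA far above the negative controls in the labelled brain tissue. The miR-124 difference was -0.19 in Hy3 (SE 0.078, unadjusted p = 0.0390, adjusted p = 0.344 in limma) and -0.084 in the ratio.

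Of the 14 probes, 8 exceeded the negative controls on all 8 arrays. These were both arms of miR-142, miR-223, miR-150, miR-155*, miR-146a, miR-146b and miR-342-3p. miR-342-5p was measured on 3 fear conditioned and 4 home cage arrays, with every spot on fear conditioned array 1 left out, and miR-223* on 4 and 3. miR-155 itself was measured on 3 and 2. The asterisked arms of miR-150, miR-146a and miR-146b, which are the minor products of their precursors, lay below the controls on every array, between 6.25 and 6.38, and their differences are not read as changes. Before normalisation miR-342-3p had a mean spot signal between 336 and 548 on fear conditioned and between 319 and 383 on home cage arrays, over a local background of 51.3 to 54.3.

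**Figure D1:**
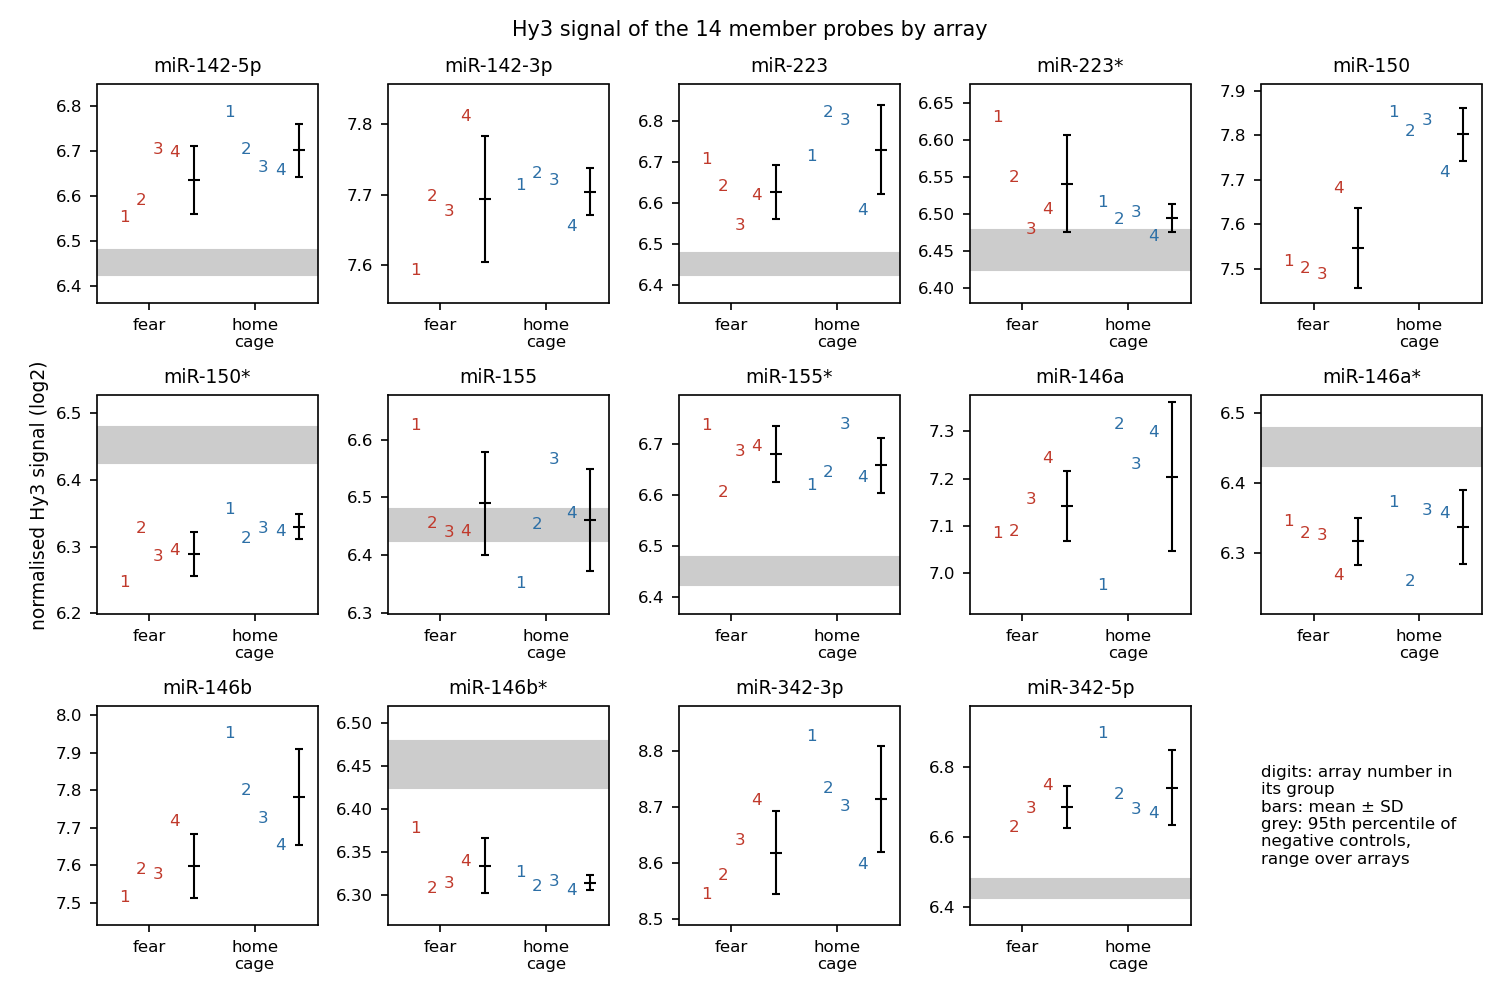
Normalised Hy3 signal (log2) of the 14 member probes, one panel each with its own vertical scale, fear conditioned arrays at left and home cage arrays at right. Digits are array numbers within a group, bars are mean ± SD, and the grey band is the 95th percentile of the negative controls over the arrays where it falls within a panel, so that miR-150*, miR-146a* and miR-146b* can be seen below it and miR-150 is the only panel in which the groups do not overlap.

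No member passed the test at an adjusted p under 0.05 in the Hy3 signal, where 0.193% of all 1034 mouse probes passed, or in the ratio, where the share was 0% of 1033. At an unadjusted p under 0.05 in limma there were 2 members in Hy3, miR-150 and miR-146b, both lower after conditioning, and 0 in the ratio. Over all mouse probes 9.09% were lower at that level in Hy3, and in the ratio 1.36% were lower and 6.29% higher. The mean was lower after conditioning for 10 of 14 members in Hy3, against 52.3% of all mouse probes, and for 9 of 14 in the ratio, against 36.8%. The members' median difference was -0.048 in Hy3 and -0.037 in the ratio, against -0.0043 and 0.031 over all mouse probes. Among the 8 probes above the controls throughout, 7 were lower in Hy3 and 5 in the ratio, against 59.9% and 31.6% of the 506 mouse probes of that kind. The Hy3 counts depended on the scaling. With median centring 6 of 14 members were lower, with spike-in or 75th percentile centring 13 of 14, and with cyclic loess 8 of 14. Less the median of all mouse probes, the median of the 14 was -0.044 as reported, 0.021 with median centring, 0.025 with spike-in centring and 0.0017 with 75th percentile centring. For the 8 probes above the controls throughout it was -0.077 as reported and 0.062 with median, spike-in and 75th percentile centring. Each of these centrings shifts all probes of an array by the same amount. For a probe with 8 values the difference less that median is therefore nearly the same in all of them by construction. With cyclic loess the median was -0.023 for the 14 and -0.062 for the 8.

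miR-142, the general marker of blood lineage cells, had overlapping groups in both arms. miR-142-3p read 7.59, 7.70, 7.68 and 7.81 in Hy3 on fear conditioned arrays 1 to 4 and 7.71, 7.73, 7.72 and 7.65 on home cage arrays 1 to 4. The conditioned arrays held both the lowest and the highest value, and the difference was -0.011 (SE 0.046, 95% interval -0.12 to 0.095, adjusted p = 0.920 in limma). The difference turned positive under 5 other treatments of the Hy3 signal, up to 0.23 with median centring. In the ratio it was -0.091 (SE 0.062, 95% interval -0.23 to 0.046) and did not pass. miR-142-5p averaged 6.63 ± 0.076 in fear conditioned and 6.70 ± 0.059 in home cage mice (SD, n = 4 each), a difference of -0.067 (SE 0.045), with -0.018 in the ratio. Its Hy3 values, from 6.55 to 6.78, were close to the controls and rested on 1 spot on at least 1 array.

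miR-223, the myeloid and platelet miRNA, was measured on all arrays but close to the controls. Its Hy3 signal was 6.71, 6.64, 6.55 and 6.62 on fear conditioned arrays 1 to 4 and 6.72, 6.82, 6.80 and 6.58 on home cage arrays 1 to 4. Home cage array 4 fell among the conditioned arrays, so the groups overlapped. The difference was -0.10 (SE 0.058, adjusted p = 0.435). The ratio gave -0.24, -0.040, -0.47 and -0.13 in fear conditioned mice against -0.18, 0.17, 0.23 and -0.16 in home cage mice. This is the largest ratio difference among the members in size, -0.24 (SE 0.12, 95% interval -0.50 to 0.027, adjusted p = 0.594). Its sign was negative in both kinds of value and in every processing alternative and with each array left out, all of which use the same 8 arrays, and in none did it pass. The ratio difference was -0.15 without fear conditioned array 3. The other arm, miR-223*, went the other way, at 0.047 (SE 0.035) in Hy3 and 0.11 (SE 0.089) in the ratio, and did not pass either.

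miR-150, the lymphocyte miRNA, was the member with the smallest p and the only one whose groups did not overlap in Hy3. Its signal was 7.52, 7.50, 7.49 and 7.68 on fear conditioned arrays 1 to 4 and 7.85, 7.81, 7.83 and 7.72 on home cage arrays 1 to 4. Every conditioned array was below every home cage array, by 0.037 between fear conditioned array 4 and home cage array 4. The groups did not overlap in this direction for 5.38% of 1003 mouse probes with 8 values. The means were 7.55 ± 0.090 in fear conditioned and 7.80 ± 0.059 in home cage mice (SD, n = 4 each), a difference of -0.26 (SE 0.050, 95% interval -0.37 to -0.14, adjusted p = 0.112 in limma). The two-sided exact permutation p was 0.0286, the smallest that 70 arrangements allow. The 4 spots of this probe spread more than those of the other members, with a median SD of 0.15 within an array against 0.022 to 0.064 for the other 13 probes.

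In the deposited ratio miR-150 went the other way. It was 0.098, 0.072, 0.060 and 0.49 on fear conditioned arrays 1 to 4 and 0.013, 0.097, -0.041 and 0.021 on home cage arrays 1 to 4. The groups overlapped, and fear conditioned array 4 stood far above the rest. The difference was 0.16 (SE 0.094, adjusted p = 0.667), or 0.054 without that array. The difference between the Hy3 and the ratio difference, tested on each array's Hy3 signal minus its ratio, was -0.41 (SE 0.073, 95% interval -0.57 to -0.25, unadjusted p = 1.85e-04, adjusted p = 0.0956 in limma). It did not pass, and neither did any of the 1033 probes in that test, of which 14.2% were lower at an unadjusted p under 0.05. Before normalisation the mean spot signal of miR-150 lay between 166 and 252 on fear conditioned and between 173 and 197 on home cage arrays, so the groups overlapped there as well.

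**Figure D2:**
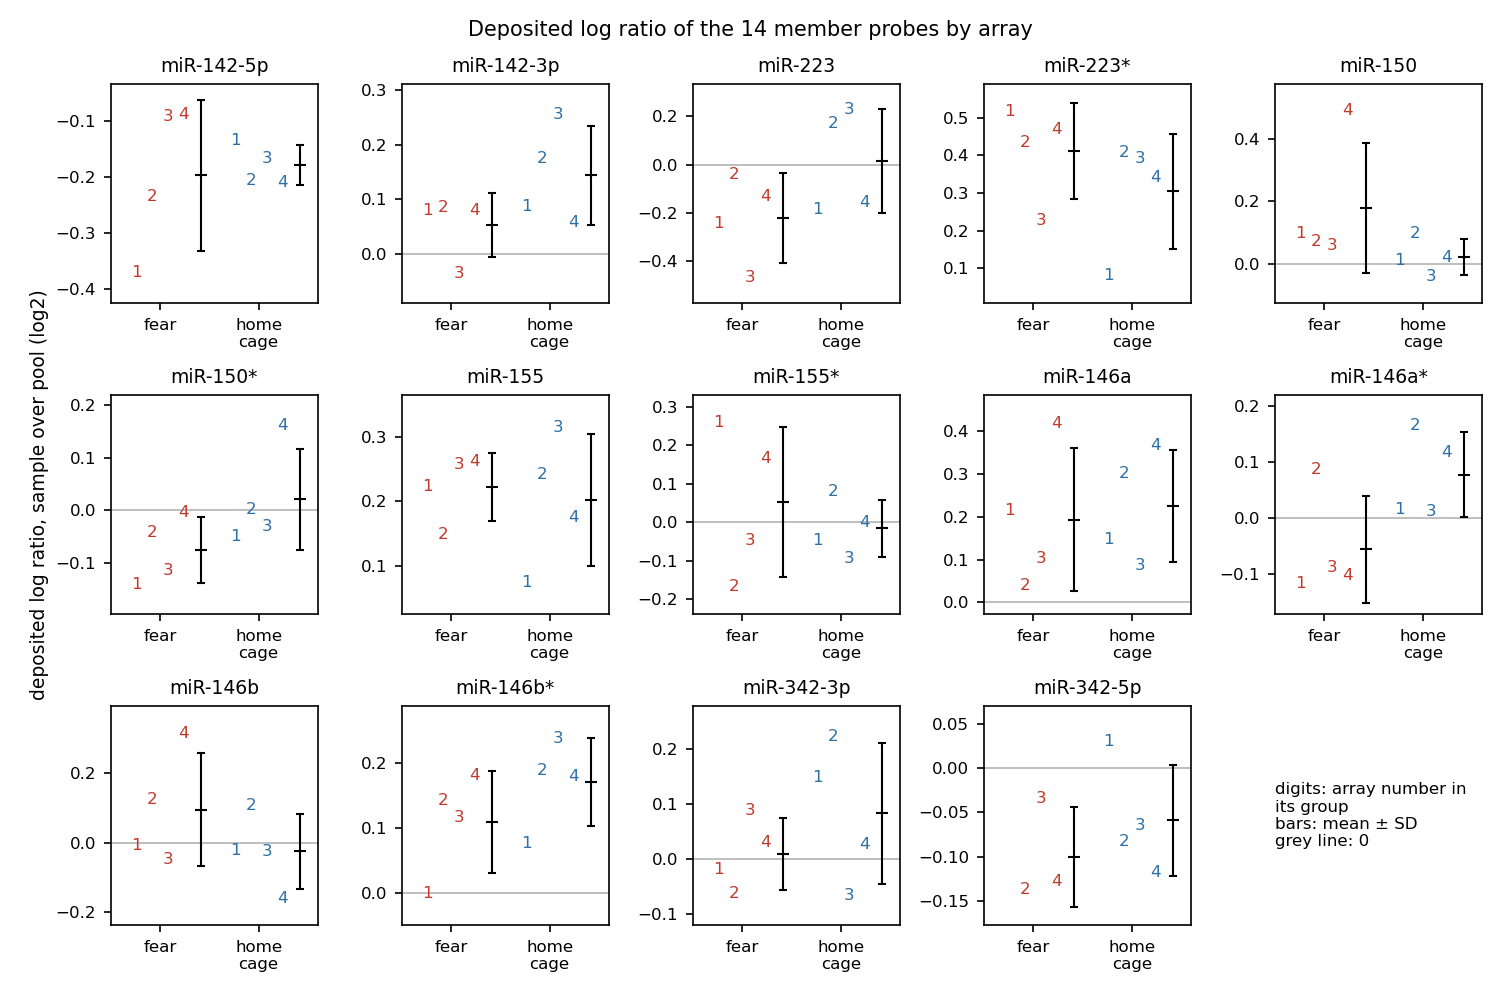
Deposited log ratio of sample to pool (taken as log2) of the 14 member probes, one panel each with its own vertical scale, with digits for array numbers and bars for mean ± SD. For miR-150 fear conditioned array 4 stands at 0.49, and for miR-223 fear conditioned array 3 is lowest at -0.47.

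miR-155, the miRNA of activated macrophages, exceeded the control threshold on 5 of 8 arrays. It did so narrowly on fear conditioned arrays 2 and 4 and home cage array 2. There it stood at 6.454, 6.441 and 6.452, against thresholds of 6.435, 6.436 and 6.425. Its Hy3 signal was 6.62, 6.45, 6.44 and 6.44 on fear conditioned arrays 1 to 4 and 6.35, 6.45, 6.57 and 6.47 on home cage arrays 1 to 4. Fear conditioned array 1 and home cage array 3 were the highest of their groups, which overlapped. The 4 spots on fear conditioned array 1 had an SD of 0.33, against a median of 0.039 over arrays. The difference was 0.030 (SE 0.058, adjusted p = 0.823) in Hy3 and 0.021 (SE 0.064, adjusted p = 0.922) in the ratio. miR-155*, measured on all arrays, averaged 6.68 ± 0.055 in fear conditioned and 6.66 ± 0.054 in home cage mice (SD, n = 4 each), a difference of 0.022 (SE 0.038), with 0.068 (SE 0.092) in the ratio.

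The miR-146 pair restrains the same signalling. miR-146a read 7.08, 7.09, 7.16 and 7.24 on fear conditioned arrays 1 to 4 and 6.97, 7.32, 7.23 and 7.30 on home cage arrays 1 to 4. Home cage array 1 was the lowest of all, and its spots of this probe had an SD of 0.82. The Hy3 difference was -0.062 (SE 0.078, adjusted p = 0.723), or -0.14 without that array, and the ratio difference -0.032 (SE 0.093, adjusted p = 0.922).

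miR-146b read 7.51, 7.59, 7.57 and 7.72 on fear conditioned arrays 1 to 4 and 7.95, 7.80, 7.72 and 7.65 on home cage arrays 1 to 4. Fear conditioned array 4 was the only conditioned array above the lowest home cage array. The Hy3 difference was -0.18 (SE 0.070, unadjusted p = 0.0309, adjusted p = 0.344 in limma), or -0.13 without home cage array 1, the highest. Like that of miR-150 it had the other sign in the ratio, 0.12 (SE 0.088, adjusted p = 0.719), where fear conditioned array 4 was again highest at 0.31. Without that array the ratio difference of miR-146b was 0.047. Tested as Hy3 minus ratio the difference was -0.30 (SE 0.074, unadjusted p = 0.00205, adjusted p = 0.110 in limma).

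miR-342-3p, made from a precursor within Evl, was well above the negative controls on every array. It read 8.54, 8.58, 8.64 and 8.71 on fear conditioned arrays 1 to 4 and 8.83, 8.73, 8.70 and 8.60 on home cage arrays 1 to 4. The groups overlapped, with 3 of 4 conditioned arrays below 3 of 4 home cage arrays. The difference was -0.095 (SE 0.055, adjusted p = 0.442) in Hy3 and -0.074 (SE 0.072, adjusted p = 0.795) in the ratio. Without home cage array 1 these were -0.058 and -0.052. miR-342-5p, with 3 fear conditioned values, differed by -0.056 (SE 0.062) in Hy3 and -0.041 (SE 0.062) in the ratio, or by -0.0039 and -0.011 without home cage array 1.

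**Figure D3:**
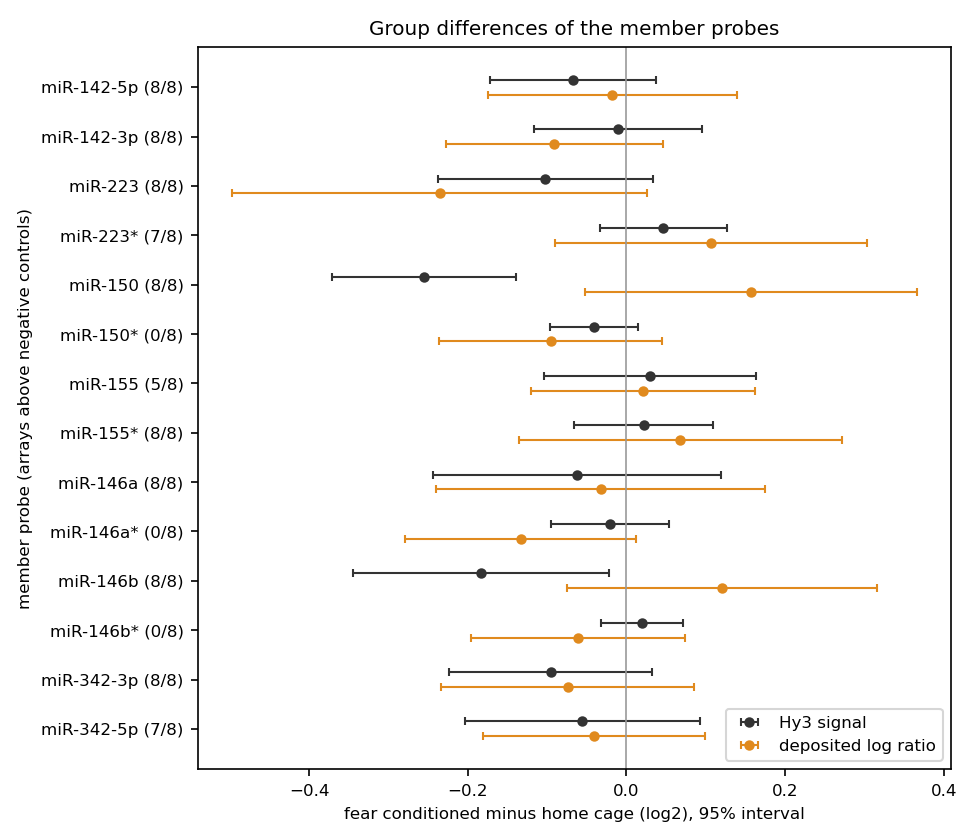
Difference of each member probe, fear conditioned minus home cage (log2), as points with 95% intervals for the Hy3 signal and the deposited ratio; numbers in brackets give the arrays on which the probe exceeded the negative controls. Only the Hy3 intervals of miR-150 (-0.37 to -0.14) and miR-146b (-0.34 to -0.022) leave out 0, before any adjustment, and the ratio differences of both lie at the other side of 0.

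The scaling of the Hy3 signal moved the differences of several members. With cyclic loess miR-150 was at -0.21 and miR-146b at -0.12, near the values as reported. With median centring miR-150 was at -0.030 and miR-146b at 0.065. With spike-in centring the median over all mouse probes shifted by -0.21 and with centring on the 75th percentile by -0.19. Relative to that shift miR-150 was at -0.029 and -0.030 and miR-146b at 0.065 in both. These nearly equal the values with median centring by construction, since each of these centrings shifts all probes of an array by the same amount. With array weights miR-150 passed at an adjusted p of 0.0473, as 1 of 12 among 1034 mouse probes, and without fear conditioned array 4 at 0.0460, as 1 of 2. Over all Hy3 alternatives its adjusted p ran from 0.0460 to 0.942, and over those of the ratio from 0.553 to 0.877.

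**Figure D4:**
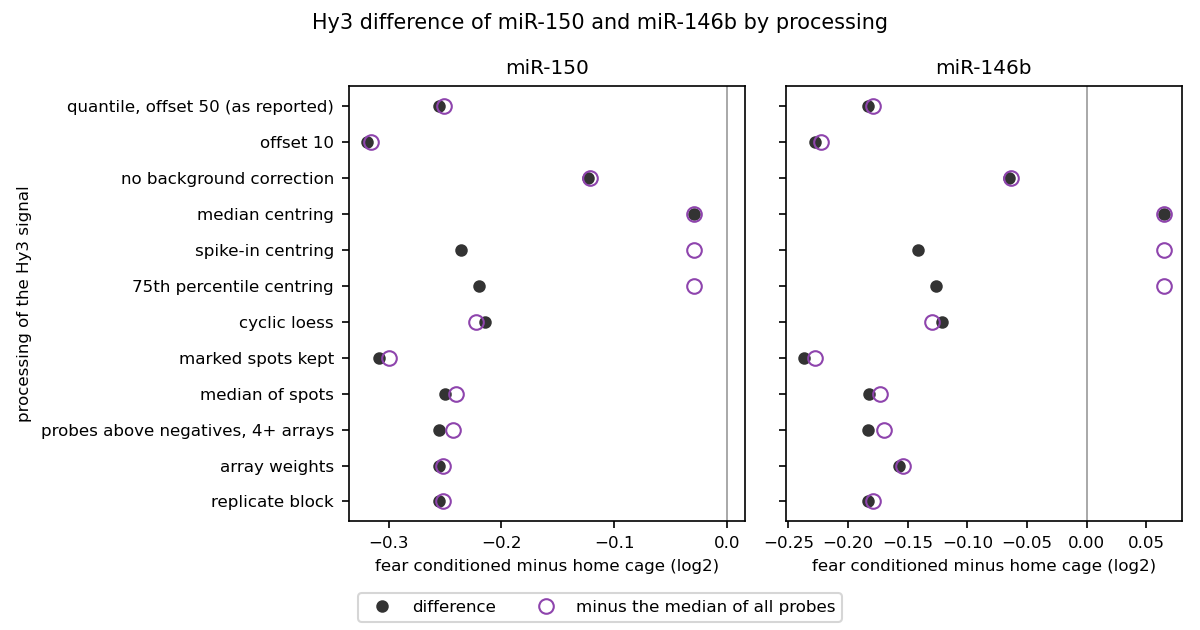
Hy3 difference of miR-150 and miR-146b (log2, fear conditioned minus home cage) under the processing as reported and 11 alternatives, as filled points, and the same less the median difference of all mouse probes, as open circles. miR-150 lies at -0.26 as reported, -0.21 with cyclic loess and -0.030 with median centring, and miR-146b at -0.18, -0.12 and 0.065.

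The members did not move as one across the arrays. Of 28 pairs among the 8 probes above the controls throughout, 5 had a Pearson's r over 0.7 across the 8 arrays in Hy3 and 2 in the ratio, and 1 pair did in both. That pair was miR-150 and miR-146b, at 0.87 and 0.84. The myeloid miR-223 and miR-142-3p were the closest pair in the ratio, at 0.95, but were at 0.12 in Hy3. The other arm, miR-142-5p, was at -0.11 with miR-223 and -0.15 with miR-142-3p in the ratio. In Hy3 these pairs were at 0.072 and 0.57. miR-146b and miR-342-3p had 0.95 in Hy3 and 0.024 in the ratio. Within a probe, Hy3 and ratio values correlated across arrays at 0.81 for miR-223 and 0.79 for miR-142-5p, at 0.10 for miR-146b and at -0.15 for miR-150. All these points share the 8 arrays and their normalisation, and they are given as descriptions.

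The probes outside the set with the most similar Hy3 profiles over the 8 arrays, of 498 above the controls throughout, were found for each of these 8 members. For miR-142-5p they were miR-153* and miR-148a (r = 0.97 each), and for miR-142-3p miR-30c (0.95) and miR-126-5p (0.93). For miR-223 they were miR-2183 (0.92) and miR-291a-3p (0.90), and for miR-150 miR-92b (0.96) and miR-3102 (0.94). miR-155* was nearest to let-7d (0.83) and miR-103-2* (0.72), and miR-146a to miR-1939 (0.94) and miR-324-5p (0.92). miR-146b was nearest to miR-151-3p (0.99) and miR-708 (0.98), and miR-342-3p to miR-132* and miR-153 (0.98 each). In the ratio the r of these 16 pairs ran from -0.26 for miR-155* with miR-103-2* to 0.95 for miR-342-3p with miR-153. Each pair was picked for the highest Hy3 r among 498 over 8 arrays, so its high r follows in part from that choice.

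Signal of red blood cell miRNAs was present in the punches of both groups. miR-451, an abundant red blood cell miRNA, read 9.39, 10.11, 8.99 and 9.70 in Hy3 on fear conditioned arrays 1 to 4 and 8.96, 9.45, 10.27 and 9.42 on home cage arrays 1 to 4. Fear conditioned array 2 and home cage array 3 were highest, and the groups overlapped, with a difference of 0.022 (SE 0.32, adjusted p = 0.973 in limma). miR-144, of the same primary transcript, differed by 0.077 (SE 0.18), and miR-144* did not reach the control threshold on any array. The red blood cell list of miR-451, miR-144 and miR-486 had 3 of 5 probes above the controls on all 8 arrays and 0 that passed. Its mean Hy3 signal ran from 7.07 to 7.44 on fear conditioned and from 7.12 to 7.49 on home cage arrays. Across arrays the ratios of miR-451 correlated at 0.53 with miR-223, 0.50 with miR-142-3p, 0.0095 with miR-150 and -0.82 with miR-342-3p. The Hy3 signals of the same pairs correlated at 0.32, 0.26, 0.049 and -0.25. For miR-142-5p, miR-155*, miR-146a and miR-146b the r with miR-451 was -0.36, -0.23, -0.30 and 0.27 in the ratio. In Hy3 it was -0.47, 0.20, 0.29 and -0.20, so the 2 arms of miR-142 had opposite signs in both kinds of value. The part of blood in the member values was not tested.

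Other miRNAs tied to microglia, macrophages, lymphocytes or inflammation (miR-21, miR-99a, miR-125b, miR-147, miR-181a, miR-181b, miR-221, miR-222 and miR-467f) gave 20 probes, of which 14 were above the controls on all 8 arrays. Most of these miRNAs are also made by other brain cells. None passed in limma in either kind of value. At an unadjusted p under 0.05, 1 probe was lower in Hy3, as were 9.09% of all mouse probes. In the ratio 3 probes were under that p, miR-467f and miR-125b-1-3p higher and miR-21 lower. Of all 1033 probes 79 were under it in the ratio, 6.29% higher and 1.36% lower. In Hy3 9 were higher and 11 lower, with a median of -0.012, and 47.7% of all mouse probes were higher. In the ratio 13 of 19 were higher, with a median of 0.050, near the 63.2% of all mouse probes. The probe with the smallest p among those lower in Hy3 was miR-99a*, at 6.56 ± 0.038 in fear conditioned and 6.68 ± 0.073 in home cage mice (SD, n = 4 each), a difference of -0.12 (SE 0.040, adjusted p = 0.301 in limma). Like those of miR-150, its groups did not overlap in Hy3, as for 5.38% of 1003 mouse probes in this direction. On the higher side the probe with the smallest p was miR-467f, a probe of a rodent repeat-derived family, at 8.40 ± 0.10 in fear conditioned and 8.27 ± 0.096 in home cage mice, a difference of 0.13 (SE 0.064, adjusted p = 0.394 in limma). In the ratio miR-467f was 0.029, 0.034, 0.27 and 0.17 on fear conditioned arrays 1 to 4 and -0.089, -0.23, -0.27 and -0.031 on home cage arrays 1 to 4. Its groups did not overlap there, as for 4.32% of 995 probes in this direction, with a difference of 0.28 (SE 0.077, adjusted p = 0.584). The ratio groups of miR-125b-1-3p did not overlap in this direction either. Of 6 probes for miRNAs of vessel wall, 4 were above the controls throughout, 4 were higher and 2 lower in Hy3, and none passed in limma, with 0 in Hy3 and 1 in the ratio at an unadjusted p under 0.05. Of all mouse probes 47.7% were higher in Hy3, and 79 of 1033 were under that p in the ratio.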

How the data were processed

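Each animal's total RNA (500 ng) carried the dye Hy3 and an equal mixture of all animals' RNA the dye Hy5, per the labels' protocols. Per the file headers, the deposited files hold 1 channel, with an intensity for each spot and its surroundings, taken as Hy3. The log ratios deposited by the authors were taken as log2 of sample over pool. No header or label states their base or how they were normalised. Hy3 and ratio deviations correlated at 0.33 to 0.73 by array over 506 probes, and over the 20 probes with the widest ratios Hy3 changed by 0.71 per unit of ratio (natural logs would give 1.44, log10 3.32). As designed for files of 1 colour, intensities were corrected with normexp (offset 50). Control spots and spots marked 3 or 4 by the scanner software were then left out. The rest were quantile normalised between arrays, averaged in log2 over the spots left of 4, and tested with limma 3.58.1 (lmFit, eBayes) under R 4.3.3. Of 56 member spots, 3 to 11 were left out per array. On at least 1 array miR-142-5p, miR-155* and miR-150* rested on 1 spot, and miR-223, miR-223* and miR-146b* on 2. Negative control spots were carried to the normalised scale by each array's own spot values. The fit was also run on simulated data with independent noise for each probe and no array effects. Those runs do not bear on the scaling. The labels call the arrays separate animals. Each array was its own slide. Alternatives changed the offset, background correction, scaling, marked spots, spot summary, probe filter, array weights, replicate block and arrays. Named were every member, the list members with the smallest p in each direction, miR-124, miR-451, miR-144 and the 2 probes most like each member. The members and lists were chosen with earlier results of these data known. Figures were drawn with matplotlib 3.10.9.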

Additional observations from a re-analysis of the deposited data

Results flagged for a closer look

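In 6 of 54 sets of 4 arrays, 1 array stood apart from the other 3 by Dixon's test at the 95% level. Chance sets apart about 1 in 20 such sets. For miR-150 this was fear conditioned array 4, in both kinds of value, at 7.68 in Hy3 and 0.49 in the ratio. In Hy3 fear conditioned array 1 stood apart for miR-155, at 6.62, and home cage array 2 for miR-146a*, at 6.26, a value below the negative controls. In the ratio fear conditioned array 3 stood apart for miR-142-3p, at -0.035, and fear conditioned array 2 for miR-146a*, at 0.086.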

How the results depend on the processing

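The count of members that passed in Hy3 was 1 with array weights (miR-150, adjusted p = 0.0473 in limma, 1 of 12 mouse probes of 1034) and ran from 0 to 1 with 1 array left out, the 1 being miR-150 without fear conditioned array 4, 1 of 2 mouse probes. It was 0 in the other settings, and 0 in every setting of the ratio. Under the replicate block 0 members passed in either kind of value, and 0 of all mouse probes in Hy3 against 2 without it. Same-numbered arrays correlated at -0.61 to 0.026 in their deviations from the group means, no array was most like its own number, and the numbers were not taken to pair animals. The members' median Hy3 difference was -0.18 with spike-in centring and -0.19 with 75th percentile centring, where the median of all probes was -0.21 and -0.19. It was 0.021 with median centring and -0.015 with cyclic loess, against -0.048 as reported. With 1 array left out it ran from -0.068 to -0.020, -0.020 being the value without home cage array 1, and in the ratio from -0.067 to -0.013. Of 151 single Hy3 values in other settings 22 turned sign, of which none passed. These were 0.064 (miR-142-3p) and -0.077 (miR-155) without background correction. With median centring they were 0.23 (miR-142-3p), 0.13 (miR-146a), 0.065 (miR-146b), -0.052 (miR-146b*), 0.18 (miR-342-3p) and 0.032 (miR-342-5p). With spike-in centring they were 0.026 (miR-142-3p), -0.20 (miR-223*), -0.17 (miR-155), -0.15 (miR-155*) and -0.26 (miR-146b*). With 75th percentile centring the same 5 probes were at 0.041, -0.18, -0.15, -0.13 and -0.24. With cyclic loess miR-142-3p was at 0.043 and miR-146a at 0.011, with the median of spots miR-155 at -0.023, and with array weights miR-146a* at 0.0042. In the ratio miR-155 was at -0.018 with array weights, the 1 turn among 53 values. The cause of these turns was not tested. With 1 array left out, miR-142-3p ran from -0.050 to 0.023 and miR-155 from -0.015 to 0.065 in Hy3, and in the ratio miR-142-5p ran from -0.054 to 0.041, miR-146a from -0.11 to 0.019, miR-155* from -0.00071 to 0.14 and miR-155 from -0.021 to 0.059.

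Several limits apply to the members as a set. With 4 arrays a group and no second array per animal, the spread mixes animal and array. Probes near the negative controls carry little signal over background, and the offset of 50 shrinks their log2 differences. Group and slide order cannot be told apart, since the slides of each group carry separate runs of numbers.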
